A study of Mus musculus with 12 samples.

Results

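Chemokine receptors are the surface receptors through which leukocytes read chemokine gradients. Transcript levels of 7 of them, Ccr1, Ccr2, Ccr3, Ccr7, Ccrl2, Cxcr4 and Cx3cr1, were followed in peritoneal macrophages of wild-type mice and of mice labelled as knockouts of the nuclear IκB protein IκBζ. All 7 genes of the set were found among 19938 genes measured, each through 1 probe set carrying exactly 1 gene symbol, so no choice between probe sets was needed. The 12 arrays form 4 groups of 3 by the sample titles. Cells came from female mice, either wild type (strain C57Bl/6) or Nfkbiz-/-, labelled as knockouts of the gene for IκBζ, and were left untreated or given the bacterial cell-wall component lipopolysaccharide (LPS) at 1 µg/ml for 4 h. Peritoneal cells were washed out of the cavity and plated for a short time before treatment, without a sort or gate named in the labels, so other cells of the wash could be present. The labels give neither the animals' age, nor how the Nfkbiz deletion was made, nor whether replicates came from separate mice, so each p-value reflects the spread among these 12 arrays, and that spread may be technical. The study's title concerns control of Ccl2, which encodes the main ligand of CCR2, by IκBζ.

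Chemokine receptors pass their signal through the Gi class of G proteins and direct cells along a gradient. CCR1 and CCR2 draw monocytes and macrophages to inflammatory CC chemokines, and CCR3 is best known from eosinophils. CCR7 guides dendritic cells and lymphocytes to lymph nodes, CXCR4 binds CXCL12 and holds cells in the bone marrow, and CX3CR1 binds the membrane-anchored chemokine fractalkine. CCRL2 is an atypical member that binds chemerin, presents it to neighbouring cells and does not signal like the others.

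The promoters of the pair that responded most to LPS are shown because these genes moved in opposite directions. Both are RefSeq windows of build GRCm38.p6, the 250 bases before an annotated start site, read 5′ to 3′ on the gene's strand, which is the minus strand for both. Capitals mark a match to the NF-κB site consensus, searched on both strands. The Ccrl2 window, chr9:111057519-111057768, belongs to the most upstream of 3 annotated starts, and the Cxcr4 window is chr1:128592300-128592549.
Ccrl2: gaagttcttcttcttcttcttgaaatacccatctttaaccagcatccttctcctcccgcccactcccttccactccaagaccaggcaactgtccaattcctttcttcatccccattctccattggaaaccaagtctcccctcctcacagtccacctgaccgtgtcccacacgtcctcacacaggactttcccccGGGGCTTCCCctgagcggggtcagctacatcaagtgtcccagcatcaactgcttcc
Cxcr4: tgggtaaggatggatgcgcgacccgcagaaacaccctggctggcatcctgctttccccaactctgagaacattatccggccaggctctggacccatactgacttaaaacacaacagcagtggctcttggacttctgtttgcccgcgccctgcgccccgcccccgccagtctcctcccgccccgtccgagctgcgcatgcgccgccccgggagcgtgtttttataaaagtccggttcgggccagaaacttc

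The Ccrl2 match, GGGGCTTCCC, spans bases -56 to -47 from that start and reads as a match on both strands, while the windows of its other 2 starts held none. The Cxcr4 window held no such match. It did hold the letters TATAAA at -30 to -25. Matches also stood in the windows of Ccr1 (GGGAGGCTCC, -74 to -65) and Ccr3 (GGAAATTCCC, -179 to -170), but not in those of Ccr2 or Cx3cr1. Of 32851 promoter windows of this length, 7.25% held the consensus. These are matches of letters and not measured sites.

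Values below are linear intensities as mean ± SD with n = 3, and differences are log2 differences with the standard error (SE) of a limma fit across all genes. A gene was called when its Benjamini-Hochberg adjusted p over the 19938 genes was under 0.05. Levels are compared within a gene only, because probe sets differ in brightness. The targeted gene Nfkbiz was lower on all knockout arrays than on all wild-type arrays of the same treatment, at 275.6 against 433.2 untreated and 1512 against 3412 with LPS. It rose with LPS in knockout cells too (2.45, limma adjusted p = 2.41e-08). The signal that remains in knockout cells cannot be placed inside or outside the deleted stretch from the labels. Macrophage markers (8 of 8 measured) lay above the array medians throughout, though Fcgr1 varied from 236.6 to 2455 between arrays. Their summed intensity was lower with LPS, at 51056 to 53128 against 59520 to 61070 in wild type and 52605 to 55282 against 58947 to 60479 in knockout. With LPS, 4 of the 8 were called lower in wild type and 3 in knockout, among them Csf1r (-0.69 and -0.68). Called higher were 1 in wild type, Cd14 (0.55), and 2 in knockout, Cd14 (0.39) and Mertk (0.58). Of all genes, 18.5% were called lower and 9.53% higher in wild type, and 23.8% and 21.9% in knockout. Array medians lay between 110.4 and 118.7. Knockout replicate 2 stood apart at several receptors in both treatments, and wild-type LPS replicate 3 was lowest of its group in interferon-stimulated genes, so results that rest on these arrays are given with and without them.

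LPS raised 1 receptor gene and lowered 2 in wild-type cells, and raised 1 and lowered 3 in knockout cells. The riser was Ccrl2 in both genotypes. Cxcr4 and Ccr3 fell in both, and Ccr1 was called lower in knockout cells alone, which does not show that its response differed. In wild type, 3 of 7 were called against 28.1% of all genes (9.53% higher and 18.5% lower), and in knockout 4 of 7 against 45.7% (21.9% higher and 23.8% lower). Groups did not overlap for 4 of 7 in wild type and 3 of 7 in knockout, against 47.5% and 53.7% of all genes.

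Ccrl2 encodes the atypical chemerin-binding receptor. It read 550.3, 522.5 and 402.3 on the untreated wild-type arrays and 4687, 5822 and 3015 with LPS. In knockout cells it read 732.1, 1074 and 622.4 untreated and 7870, 8445 and 8605 with LPS. The 4 groups did not overlap and ran upward from untreated wild type through untreated knockout and LPS-treated wild type to LPS-treated knockout. The LPS response was 3.16 in wild type (SE 0.24, 8.93-fold, 95% interval 6.23 to 12.8, limma adjusted p = 2.57e-06). In knockout it was 3.40 (SE 0.24, 10.5-fold, 95% interval 7.35 to 15.1, limma adjusted p = 1.09e-06). These are bulk samples, in which more cells of a type and more RNA per cell cannot be told apart.

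Cxcr4, the CXCL12 receptor gene, went the other way. Untreated wild-type arrays read 2440, 2556 and 2276, and LPS-treated ones 231.1, 239.0 and 240.0. Knockout arrays read 2872, 2730 and 2333 untreated and 405.9, 275.7 and 253.7 with LPS. Every LPS-treated array lay far below every untreated one. The fall was -3.35 in wild type (SE 0.15, 10.2-fold, 95% interval 8.18 to 12.8, limma adjusted p = 4.96e-08). In knockout it was -3.11 (SE 0.15, 8.64-fold, 95% interval 6.90 to 10.8, limma adjusted p = 7.85e-08). All 12 fits that left out 1 array kept the calls of Ccrl2 and Cxcr4 in both genotypes.

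**Figure D1:**
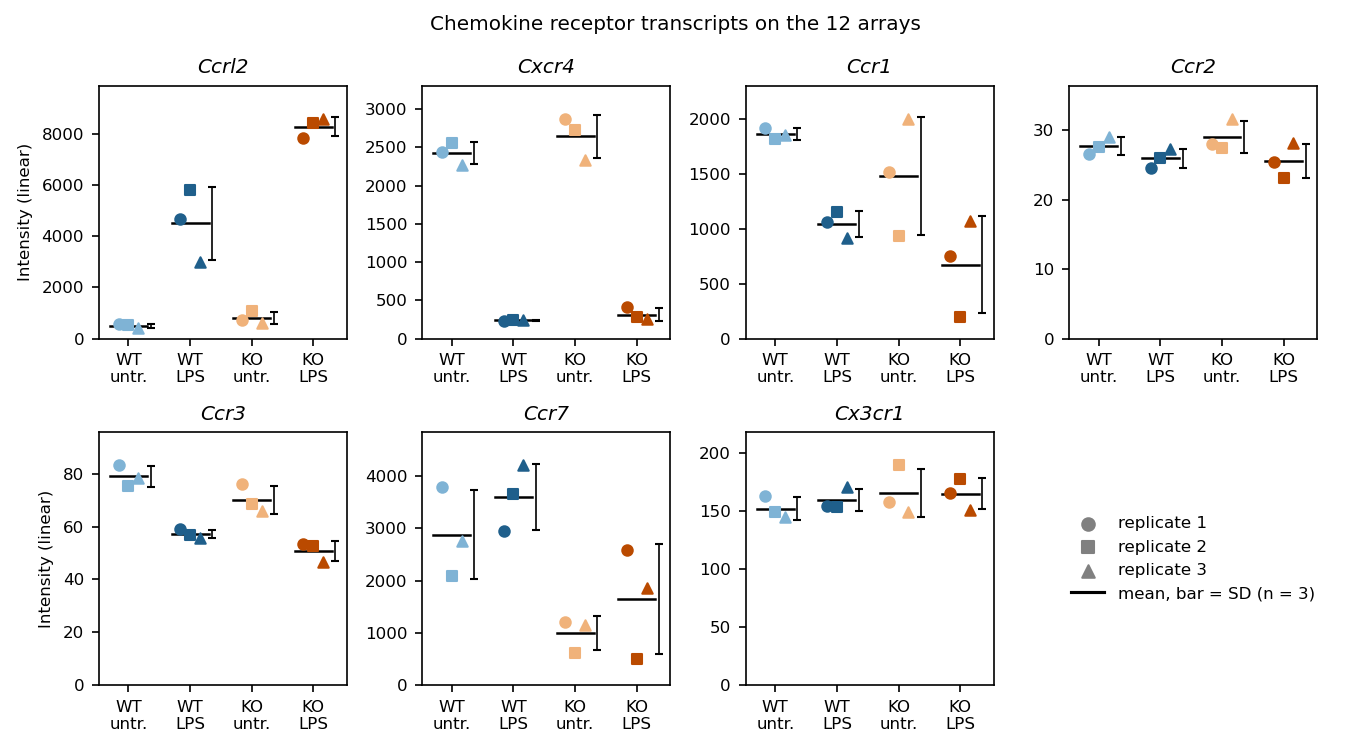
Linear intensity of the 7 receptor genes on each of the 12 arrays, with wild type (WT) in blue and knockout (KO) in orange, marker shapes for the replicate number, a line at the group mean and a bar for the SD (n = 3). Ccrl2 rises from 492 to 4508 in wild type and from 809 to 8307 in knockout, Cxcr4 falls from 2424 to 237 and from 2645 to 312, and the square of knockout replicate 2 lies lowest of its group at Ccr1 and Ccr7.

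Ccr1, a receptor for CCL3, CCL5 and related chemokines, was lower after LPS. In wild type it read 1924, 1822 and 1859 untreated and 1065, 1154 and 920.0 with LPS, without overlap. Knockout arrays spread widely, with 1518, 932.5 and 2004 untreated and 756.6, 193.7 and 1076 with LPS, and these groups overlapped. The wild-type difference of -0.84 was not called (SE 0.49, limma adjusted p = 0.235) in the fit that shares 1 estimate of spread over the 4 groups. In a fit of the 6 wild-type arrays alone the adjusted p was 3.16e-04, and without LPS-treated knockout replicate 2 it was 0.0163. The knockout difference of -1.39 was called (SE 0.49, limma adjusted p = 0.0366), and in a fit that pairs the knockout arrays by replicate number its adjusted p was 8.42e-04. It missed the threshold in a fit of the 6 knockout arrays alone (adjusted p = 0.114) and with an intensity trend (adjusted p = 0.0668). Without LPS-treated knockout replicate 2 it was -0.65 and missed the threshold (adjusted p = 0.064), as it did without untreated knockout replicate 1 (-1.34) or 3 (-1.14). Without both knockout arrays of replicate 2 it was -0.95 and called (limma adjusted p = 0.00178).

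Ccr3, the eotaxin receptor gene, fell in both genotypes from a dim signal. It read 83.2, 75.5 and 78.5 on the untreated wild-type arrays and 59.0, 56.8 and 55.8 with LPS. In knockout it read 76.1, 68.5 and 65.9 untreated and 53.3, 52.5 and 46.4 with LPS. No array of LPS-treated cells reached the lowest untreated one. The 25th percentile of all probe sets lay at 45.6 to 50.5, near the LPS-treated knockout values, and a dim probe set understates changes. The differences were -0.47 in both genotypes (SE 0.08, limma adjusted p = 9.44e-04 in wild type and 6.17e-04 in knockout). With each array centred on its 75th percentile, the median LPS difference over all genes was 0.230 in wild type and 0.348 in knockout. Under that scaling Ccr3 changed by -0.27 (adjusted p = 0.0247) and by -0.19 (adjusted p = 0.0736), so the knockout call was lost.

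Eosinophils are known to carry CCR3. Of 6 listed eosinophil markers, 4 were measured, and 0 were called with LPS in wild type. In knockout 3 rose, Il5ra (0.49), Prg2 (0.27) and Epx (0.27), where 21.9% of all genes were called higher. Epx and Il5ra are mostly dimmer than Ccr3, with group means of 40.6 to 48.6 and 35.8 to 51.4, so a fall may not be detectable in them. Siglecf was brighter, with group means of 141.2 to 152.7, and differed with LPS by 0.01 in wild type and -0.09 in knockout, not called. The summed intensity of the 4 markers was 276.9 to 326.4 in untreated and 295.1 to 317.7 in LPS-treated wild-type cells, and 245.1 to 303.0 and 304.2 to 315.9 in knockout cells. No marker is at 0, since no array value is, and the part of eosinophils in the Ccr3 result was not tested.

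Ccr2, the receptor gene for CCL2, stood near the bottom of the range, between 23.2 and 31.7 on all 12 arrays. For comparison, the 10th percentile of all probe sets lay at 20.8 to 22.5. It read 26.6, 27.6 and 29.1 in untreated and 24.5, 26.0 and 27.3 in LPS-treated wild-type cells, then 28.0, 27.4 and 31.7 and 25.4, 23.2 and 28.2 in knockout cells. All groups overlapped their neighbours in level. The LPS difference was -0.10 in wild type (95% interval -0.29 to 0.10) and -0.18 in knockout (95% interval -0.38 to 0.01), neither called, and both turned positive after centring on the 75th percentile (0.09 each). With array weights the wild-type difference was -0.17 and called (limma adjusted p = 0.0326), and without LPS-treated knockout replicate 3 the knockout difference was -0.25 and called (adjusted p = 0.047). As for Ccr3, these intervals describe the signal and do not bound the transcript. Of 7 markers of monocytes and small peritoneal macrophages, cells known to carry CCR2, 5 were measured. With LPS 0 were called in either genotype, where 28.1% and 45.7% of all genes were. Their sum on the LPS-treated knockout arrays ran from 1231 on replicate 2 to 3308. Plac8 read 806.2, 63.5 and 2256 on these arrays, and Itgax, highest on replicate 2, read 761.4, 903.3 and 535.7. The part of these cells in the receptor results was not tested.

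Cx3cr1, the fractalkine receptor gene, kept within 144.7 to 189.3 on all arrays. Wild-type values were 163.0, 148.9 and 144.7 untreated and 154.6, 153.3 and 170.9 with LPS. In knockout cells they were 158.2, 189.3 and 149.6 untreated and 165.9, 177.9 and 151.3 with LPS. Every group overlapped every other. LPS differences were 0.07 (95% interval -0.15 to 0.29) and 0.00 (95% interval -0.22 to 0.22) and were not called. After centring on the 75th percentile both were positive and called, at 0.26 (limma adjusted p = 0.0452) in wild type and 0.275 (limma adjusted p = 0.0268) in knockout, where the medians of all genes were the 0.230 and 0.348 given above.

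Ccr7, the lymph-node homing receptor gene, passed the test neither for its LPS response nor for its genotype difference in either treatment, though its values separated the genotypes. Wild-type arrays read 3784, 2095 and 2759 untreated and 2944, 3661 and 4202 with LPS. Knockout arrays read 1215, 612.7 and 1147 untreated and 2580.4, 494.9 and 1863 with LPS. Every knockout array lay below every wild-type array of the same treatment. The LPS difference was 0.35 in wild type (SE 0.50, limma adjusted p = 0.645) and 0.49 in knockout (SE 0.50, limma adjusted p = 0.436). Without LPS-treated knockout replicate 2 the knockout response was 1.21 and called (limma adjusted p = 0.00923), and without both knockout arrays of replicate 2 it was 0.89 (adjusted p = 0.0187).

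The comparison of genotypes asks which receptor levels differ between knockout and wild-type cells. Untreated, 0 of 7 genes were called, against 0.0752% of all genes (0.0351% higher and 0.0401% lower), and 2 of 7 did not overlap, against 16.3%. At an unadjusted limma p under 0.05 there were 2 of 7, against 8.68% of all genes. These were Ccr7, lower in knockout by -1.56 (SE 0.50, 95% interval -2.66 to -0.46, limma adjusted p = 0.416), and Ccrl2, higher by 0.69 (SE 0.24, 95% interval 0.17 to 1.21, limma adjusted p = 0.442). The other differences were -0.40 for Ccr1, -0.17 for Ccr3, 0.06 for Ccr2, 0.12 for Cxcr4 and 0.12 for Cx3cr1.

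With LPS, 1 of 7 was called, against 8.14% of all genes (3.28% higher and 4.87% lower), and 4 of 7 did not overlap, against 24.5%. Ccrl2 was higher in knockout, at 8307 ± 387 against 4508 ± 1412 (0.93, SE 0.24, 1.91-fold, 95% interval 1.33 to 2.73, limma adjusted p = 0.0338). Of the 12 fits with a single array removed, 5 kept that call. It was lost without any one of the LPS-treated wild-type replicates 1 (0.99) and 3 (0.67) and LPS-treated knockout replicates 1 (0.97), 2 (0.92) and 3 (0.91), and without untreated wild-type replicate 2 or untreated knockout replicate 1 (both 0.93), at adjusted p from 0.0509 to 0.124. Ccr7 was lower at 1646 ± 1060 against 3602 ± 631, a difference of -1.42 that was not called (SE 0.50, limma adjusted p = 0.113). It was called without LPS-treated knockout replicate 1 (-1.89, limma adjusted p = 0.0421), and without replicate 2 of that group it was -0.70 (adjusted p = 0.222).

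Cxcr4 read 312 ± 82.3 in knockout and 237 ± 4.87 in wild type with LPS, without overlap but not called (0.37, SE 0.15, limma adjusted p = 0.166). With array weights it was 0.48 and called (limma adjusted p = 0.0256). Ccr3 was at 50.8 ± 3.75 against 57.2 ± 1.60, also without overlap and not called (-0.17, SE 0.08, limma adjusted p = 0.228). Ccr1 differed by -0.95 (95% interval -2.02 to 0.12), and by -0.21 without LPS-treated knockout replicate 2. Ccr2 (-0.02, 95% interval -0.22 to 0.17) and Cx3cr1 (0.05, 95% interval -0.17 to 0.27) were not called either.

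Because Ccr7 and Ccrl2 differed the same way in both treatments, the genotype difference averaged over treatments was also computed, a comparison chosen after these values were seen. Over the 12 arrays it was -1.49 for Ccr7 (SE 0.35, limma adjusted p = 0.0345) and 0.81 for Ccrl2 (SE 0.17, limma adjusted p = 0.0193), and 5.40% of all genes were called. Same-numbered knockout arrays deviated together, so these arrays are not independent. With same-numbered arrays averaged first, 3 values against 3, neither was called (limma adjusted p = 0.146 and 0.105), and 0.853% of genes were.

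The LPS responses of the 2 genotypes did not differ by test for any receptor gene. For the difference of responses, 0 of 7 were called, against 0.747% of all genes (0.301% higher and 0.446% lower). At an unadjusted limma p under 0.05 there were also 0 of 7, against 13.1% of all genes. It was 0.24 for Ccrl2 (95% interval -0.49 to 0.97), 0.24 for Cxcr4 (95% interval -0.21 to 0.70) and 0.00 for Ccr3 (95% interval -0.25 to 0.25). The intervals of Ccr1 (-2.06 to 0.97) and Ccr7 (-1.41 to 1.69) are wide. The median over the 7 genes was 0.00, against 0.02 over all genes.

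**Figure D2:**
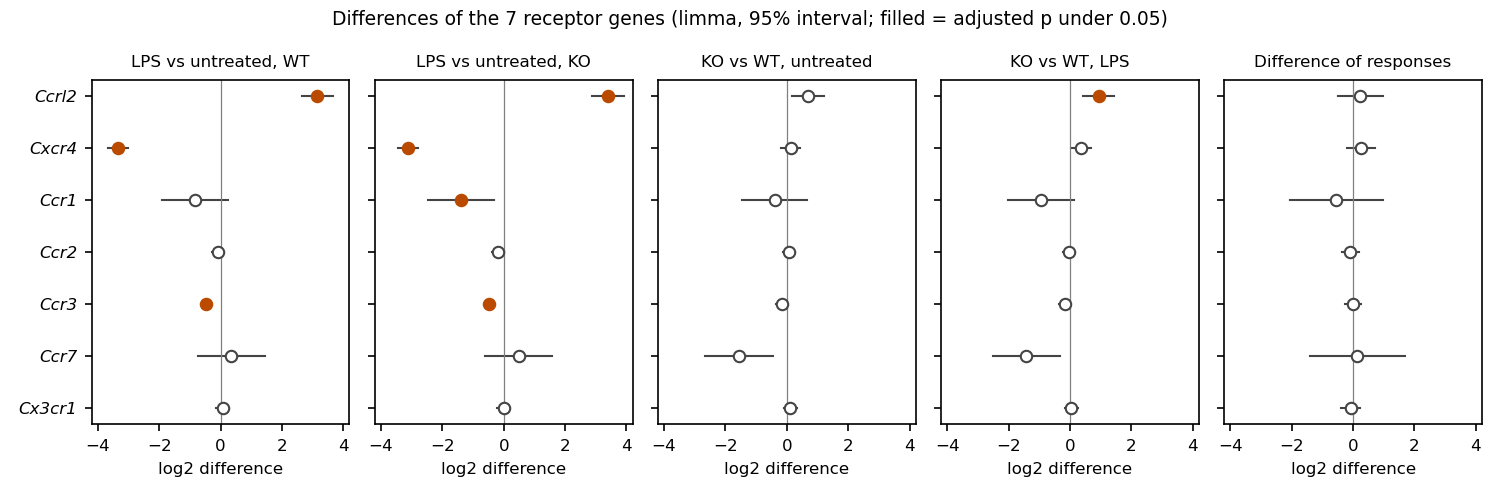
Log2 differences of the 7 receptor genes in the 5 comparisons, as points with 95% intervals of the limma fit on a shared axis, filled where the adjusted p was under 0.05. Ccrl2 and Cxcr4 stand far from 0 in both LPS comparisons, at 3.16 and -3.35 in wild type, and all intervals of the difference of responses include 0.

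Other cells and programmes that moved beside Ccrl2 and Ccr7 were measured. The summed intensity of 8 interferon-stimulated genes reached 33100, 57830 and 10470 in wild-type cells given LPS, the same order as Ccrl2 there. It was 4252, 3982 and 2160 on the untreated wild-type arrays and 62088, 63985 and 72965 on the LPS-treated knockout arrays, again in the order of Ccrl2. On untreated knockout arrays it was 5593, 4987 and 18371, while Ccrl2 was lowest on the last of these. Ccr7 is also carried by B cells, T cells and dendritic cells. B cell markers (5 of 6 measured) summed to 1182 to 1772 in untreated and 907.4 to 1240 in LPS-treated wild-type cells, and to 872.0 to 1470 and 713.8 to 1173 in knockout cells, lowest on knockout replicate 2 in both treatments. Dendritic cell markers (6 of 6 measured) summed to 1000.0 to 2128 and 724.9 to 1125 in wild type, and to 1087 to 1533 and 708.8 to 775.9 in knockout. With LPS, the B cell list had Cd79b called lower in both genotypes (-0.98 in wild type and -1.27 in knockout). The dendritic cell list had Clec9a called lower in both (-2.03 and -2.60) and Zbtb46 higher in knockout (0.37). Of all genes, 28.1% were called with LPS in wild type and 45.7% in knockout. Neither list had a member called between genotypes, where 0.0752% of all genes were called untreated and 8.14% with LPS. T and NK cell markers (5 of 6 measured, summed 300.3 to 400.7) had 1, Cd3e, which was higher in LPS-treated knockout cells (0.29). Mast cell markers (7 of 7 measured) had 1 member called with LPS, where 28.1% of all genes were called in wild type and 45.7% in knockout. It was Hdc, the histamine-synthesis enzyme (4.39 in wild type and 3.91 in knockout). The mast cell sum was lowest on knockout replicate 2 in both treatments, at 1024 and 1932, but Hdc made up most of the LPS-treated sums. On untreated knockout replicate 2, every mast cell marker other than Hdc lay within the range of the untreated wild-type arrays. Large peritoneal macrophage markers (5 of 6 measured) summed higher in knockout without overlap, at 12519 to 16227 against 10767 to 11639 untreated and 15092 to 16942 against 12755 to 13015 with LPS, as Ccrl2 did. Of these 5 markers, 0 were called between untreated genotypes, against 0.0752% of all genes. With LPS 1 was, Prg4 (0.36, limma adjusted p = 0.0483), against 8.14%. Prg4 made up most of each sum. Gata6 was lower in LPS-treated knockout cells (-0.79, limma adjusted p = 0.061) and F5 in untreated ones (-0.43), neither called. All other differences of these markers between genotypes were positive. The part of these cells and genes in the receptor results was not tested.

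**Figure D3:**
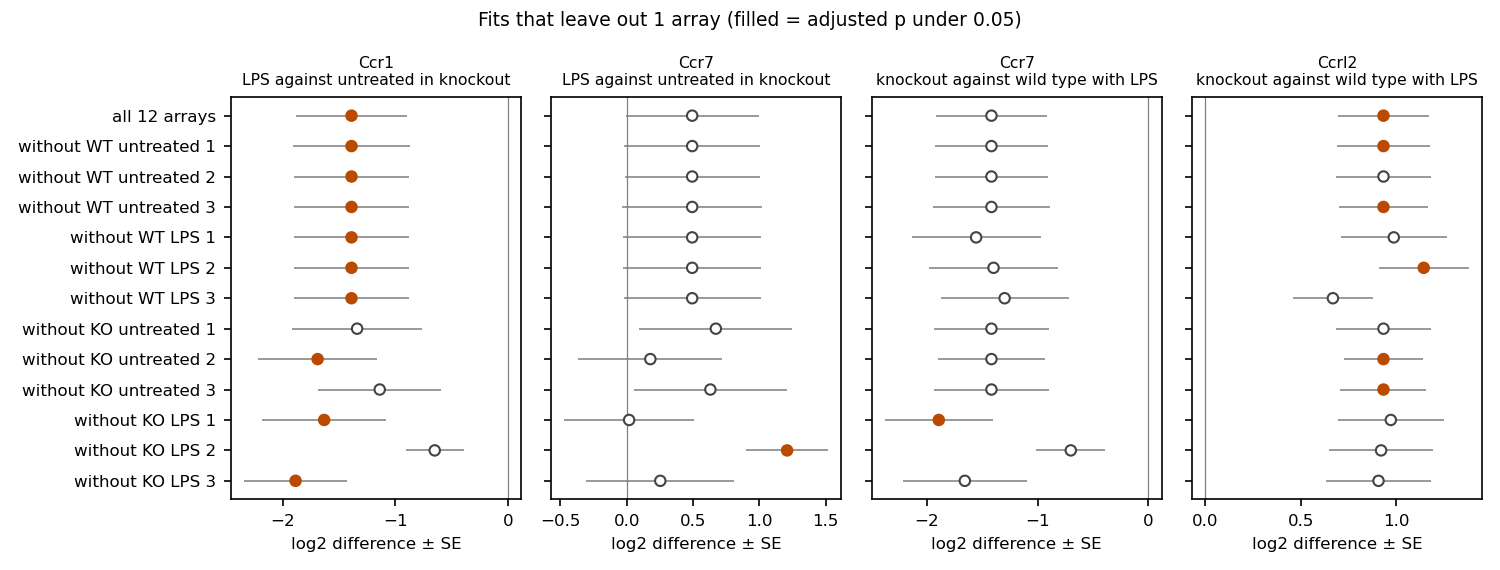
Log2 difference ± SE of 4 receptor results in the fit of all 12 arrays and in each of the 12 fits that leave out 1 array, filled where the adjusted p was under 0.05. Leaving out LPS-treated knockout replicate 2 moves Ccr1 from -1.39 to -0.65 and the Ccr7 response from 0.49 to 1.21, and the Ccrl2 genotype difference stays between 0.67 and 1.14.

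Among the ligand genes of these receptors, 1 was called between untreated genotypes and 2 with LPS, against 0.0752% and 8.14% of all genes. Of 16 listed ligands 15 were measured. With LPS, 5 rose and 1 fell in wild type, and 6 rose and 1 fell in knockout, where 28.1% and 45.7% of all genes were called. Ccl4 (4.63, SE 0.16, limma adjusted p = 7.19e-09), Ccl7 (3.25) and Ccl2 (2.73) rose most in wild type, and Ccl4 (4.97), Ccl3 (2.87) and Ccl5 (2.02) in knockout. Ccl6 fell in both, by 1.03 in knockout. With LPS, Ccl7 (-3.40, SE 0.39, limma adjusted p = 5.67e-04) and Ccl2 (-2.74, SE 0.53, limma adjusted p = 0.00982), both ligands of CCR2, were lower in knockout, while Ccr2 itself differed by -0.02. Untreated, Ccl3, a ligand of CCR1, was lower in knockout (-1.45, limma adjusted p = 0.00121). Cxcl12 (-0.12 and -0.13), Cx3cl1 (0.10 and 0.30), Ccl19 (0.08 and 0.06) and Rarres2, the chemerin gene (-0.06 and 0.13), are ligand genes of CXCR4, CX3CR1, CCR7 and CCRL2, given as LPS differences in wild type and knockout. Of these only the knockout value of Cx3cl1 was called. Rarres2 and Cxcl12 were dim, with group means of 54.6 to 64.7 and 73.8 to 85.3, so a change may not be detectable in them.

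**Figure D4:**
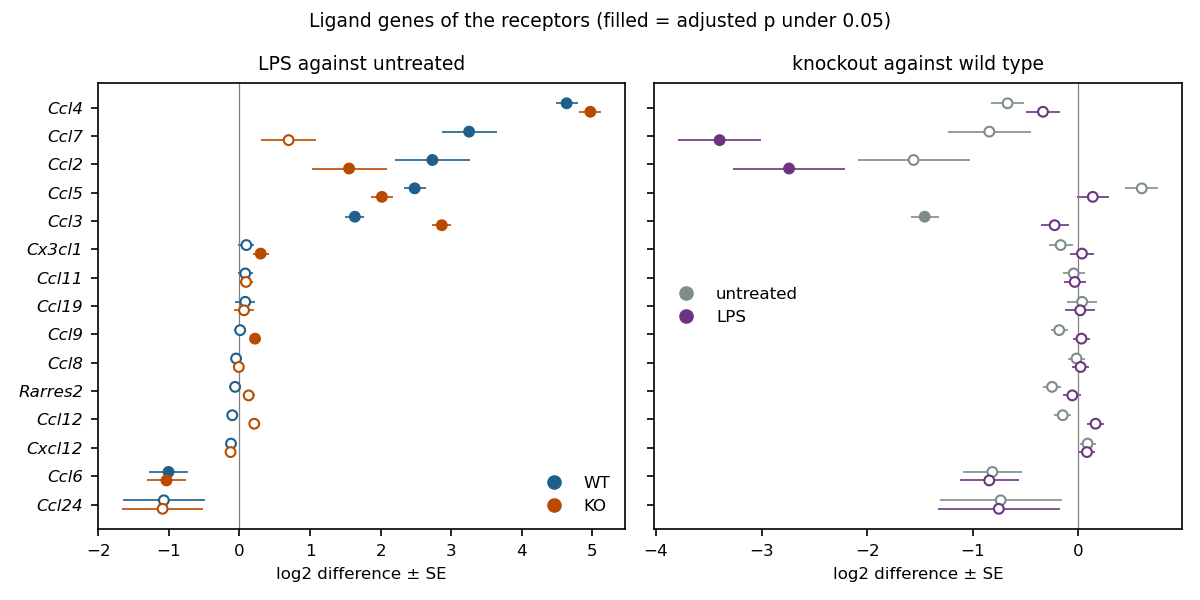
Log2 difference ± SE of the 15 measured ligand genes, on the left for LPS against untreated in each genotype and on the right for knockout against wild type in each treatment, filled where the adjusted p was under 0.05. Ccl4 rises by 4.63 and 4.97, and on the right Ccl7 and Ccl2 with LPS and Ccl3 untreated are the filled points.

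The remaining chemokine receptor genes were mostly dim, with group means under the array medians, so a change may not be detectable in many of them. Of 17 listed, 16 were measured and 1 was called with LPS in each genotype, the gut-homing receptor gene Ccr9 (0.40, limma adjusted p = 0.0323, and 0.38, adjusted p = 0.0259). None was called between genotypes or in the difference of responses. Their median LPS difference was 0.08 in wild type and 0.11 in knockout, against 0.04 and 0.07 over all genes. The largest LPS differences in this list were those of Cxcr5, 0.76 and 1.12, which were not called (limma adjusted p = 0.235 and 0.0563). Among 12 other chemoattractant receptor genes, 10 were measured, of which 1 rose and 4 fell in wild type and 2 rose and 5 fell in knockout, against 28.1% and 45.7% of all genes called. Between genotypes with LPS, 1 was higher, the complement receptor gene C5ar1 (0.54), and 2 were lower, P2ry2 (-1.02) and Plaur (-0.33), against 8.14% of all genes. Cmklr1, the signalling receptor for chemerin, fell by 1.00 in wild type (limma adjusted p = 0.00137) and by 0.71 in knockout (limma adjusted p = 0.00818). The complement receptor gene C3ar1 fell in both genotypes (-1.17 and -1.68), and S1pr1, which guides cells by sphingosine-1-phosphate, fell by 1.55 in wild type and by 0.85 in knockout. On the LPS-treated knockout arrays S1pr1 read 1627, 569.7 and 1370, and C5ar1 read 3625, 5484 and 3720. Cxcr5 read 170.5, 43.45 and 149.1 there, so replicate 2 stood apart in each of these genes.

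Genes that carry or end signals of receptors coupled to G proteins were also followed. Whether each acts on the chemokine receptors in these cells was not tested. Of 23 listed, 22 were measured, and with LPS 2 rose and 12 fell in wild type and 2 rose and 13 fell in knockout, with medians of -0.41 and -0.39 against 0.04 and 0.07 over all genes. Of all genes, 18.5% and 23.8% were called lower. Rgs2, which speeds the end of G-protein signals, changed most (-4.26, SE 0.36, limma adjusted p = 6.41e-06, and -3.56). Arrb1, which encodes a β-arrestin that uncouples receptors, fell from 4680 ± 83.4 to 938 ± 278 in wild type and from 3963 ± 67.8 to 654 ± 163 in knockout (-2.36 and -2.63). Between genotypes with LPS, 2 were higher and 3 lower, against 8.14% of all genes called. Rac2, a GTPase that drives movement, was 2394 ± 141 in knockout and 6217 ± 406 in wild type (-1.38, SE 0.08, limma adjusted p = 3.43e-06). Pik3cg, the kinase subunit downstream of Gβγ, was lower (-0.80) and the receptor kinase gene Grk5 higher (0.76).

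The nearest patterns over the 12 arrays were searched among 9432 brighter genes by Pearson correlation of log2 intensity, as a description. The arrays share their group structure, which sets much of any such value. Fbxo31 (r = 0.995), Slc43a2 (0.993) and Rasa3 (0.991) were most like Cxcr4, and Taf7 (0.990), Peli1 (0.989) and Stau1 (0.984) most like Ccrl2. Adam8 (0.979), Zkscan1 (0.968) and Tgfbi (0.962) were most like Ccr1, Zkscan14 (0.980), Cenpx (0.973) and Emc3 (0.971) most like Ccr3, and Dcaf1 (0.949), Mmp25 (0.946) and Gpatch8 (0.924) most like Ccr7. Ccr2 (Mst1r, 0.932, Nsdhl, 0.895, and Oplah, 0.891) and Cx3cr1 (Dcaf12, 0.853, Treml4, 0.849, and Arf6, 0.839) had looser matches. Among the receptor genes themselves, Ccrl2 ran against Cxcr4 (r = -0.928) and Ccr3 (r = -0.939), and Ccr7 had r = 0.00 with Ccrl2.

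In the RefSeq gene order, Ccr1, Ccr3, Ccr2, Ccrl2 and Cx3cr1 lie on chromosome 9, Cxcr4 on chromosome 1 and Ccr7 on chromosome 11. From 5 tested genes before to 5 after the stretch that holds Ccrl2 and the Ccr1, Ccr3 and Ccr2 cluster there were 127 tested genes. LPS raised 15 and lowered 30 of them in wild type and raised 28 and lowered 38 in knockout, where 28.1% and 45.7% of all genes were called. Between genotypes 0 were called untreated and 9 with LPS, 3 higher and 6 lower, where 8.14% of all genes were called. These counts are given as a description, with no test against other stretches. Close to the cluster, Lztfl1 rose (0.94 in wild type and 0.77 in knockout) and Fyco1 fell (-0.45 and -0.68). Of the receptor genes there, Ccr9 rose as given above, while Cxcr6 (0.06 and -0.04), Xcr1 (0.12 and 0.09) and Ccr1l1 (0.07 and 0.20) were not called.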

How the data were processed

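For each array the authors deposited 35556 probe set intensities, linear in scale. The submitters' processing notes name RMA and Affymetrix Expression Console 1.1. For RMA's settings and the genome build, the sources used here state nothing. The values ran from 6.96 to 22642. Log2 of the intensity was taken without a pseudocount. Probe sets with exactly 1 symbol in GEO's platform annotation numbered 21789, of which 21698 matched a RefSeq gene table (GRCm38) by Entrez identifier. The probe set with the highest mean per gene was kept. No detection call was used, and the number of arrays limits the precision.

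All fits used limma 3.58.1 in R 4.3.3 (two-sided, 4 group means, 12 arrays, 8 residual degrees of freedom), after tests on simulated data. The gene members and lists were chosen with earlier results of these data known, and the lists of interferon-stimulated genes and the targeted gene were added later. Named were all 7 members, up to 3 called genes per list and comparison with the largest difference, the 3 genes most correlated with each member, and neighbours on the chromosome. Values of other listed genes are given beside these and were picked after they were seen. They are the ligands of single receptors, Cxcr5, Cd14, Gata6, F5, Plac8, Itgax, Siglecf, Il5ra, Prg2, Epx and neighbouring receptor genes.

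Replicate numbers were checked as pairs: deviations from group means of same-numbered arrays correlated at 0.322 to 0.568 between both treatments in knockout but at -0.07 to 0.359 in wild type, and 5 of 18 same-numbered pairs were over 0.1. The numbers therefore pair the knockout arrays only. Alternatives covered scaling, a filter on dim genes, variance models, array weights, blocks, probe sets, a pseudocount and left-out arrays.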

Additional observations from a re-analysis of the deposited data

Results flagged for a closer look

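The LPS response differed between genotypes, by the limma interaction test, for 3 related genes and for none of the 7 receptor genes. Ccl3, a CCR1 ligand, responded more strongly in knockout by 1.23 on the log2 scale (SE 0.19, limma adjusted p = 0.0136), from a lower untreated level. Rac2 rose in wild type (0.39) and fell in knockout (-0.93), a difference of -1.32 (SE 0.11, limma adjusted p = 3.34e-04). The macrophage marker Mertk, an apoptotic cell receptor, fell in wild type (-0.69) and rose in knockout (0.58), a difference of 1.27 (SE 0.16, limma adjusted p = 0.0053).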

How the results depend on the processing

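Of 8 called receptor results, none changed direction in any of 197 alternative fits, and calls were lost in 10 of 96 fits with a single array removed and in 6 of 101 others. In wild type 3 receptor genes were called with LPS, 5 with array weights and 3 to 4 without 1 array. In knockout 4 were called, and 3 to 5 without 1 array. Between genotypes with LPS 1 was called, 2 with array weights, 2 with the replicate block, 0 in the fit of the 6 arrays compared, 0 without both LPS-treated wild-type replicate 3 and knockout replicate 2, and 0 to 1 without 1 array. Untreated and for the difference of responses the count was 0 in all fits. The replicate block added the Ccr7 genotype call with LPS (adjusted p = 0.0489). The block within genotype gave 4, 4 and 0 calls for both LPS responses and their difference, added Ccr1 in wild type (adjusted p = 0.0181), and changed no other receptor call. It could not be fitted for genotype comparisons. The Ccr1 knockout call was also lost with an intensity trend (0.0668) and in the fit of the 6 arrays compared (0.114), and the Ccrl2 genotype call in the latter (0.0842). The cause was not tested.

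Some uncalled differences changed sign in 38 fits, the largest of them the Ccr1 difference of responses (-0.55 in the main fit). Of these fits 1 was called, Cx3cr1 in knockout after centring on the 75th percentile. After centring on the 75th percentile Ccr2 was 0.094 in both LPS responses and 0.053 between LPS-treated genotypes, Cx3cr1 was 0.275 in knockout, and the differences of responses of Ccr2, Ccr3 and Cx3cr1 were 0.00019, 0.084 and 0.014. The Cx3cr1 knockout response was 0.11 after quantile normalization, 0.020 after median centring, 0.015 with array weights and 0.042 without both knockout replicate 2 arrays, and -0.072 to 0.10 without 1 array. Ccr2 between LPS-treated genotypes was 0.060 with array weights, 0.046 without both knockout replicate 2 arrays, 0.083 without LPS-treated wild-type replicate 3 and knockout replicate 2, and -0.093 to 0.046 without 1 array. Cx3cr1 there was -0.0091 without both knockout replicate 2 arrays and -0.0091 to 0.11 without 1 array. Untreated, Ccr2 ran from -0.0014 to 0.10 without 1 array. Differences of responses without those LPS-treated arrays of wild-type replicate 3 and knockout replicate 2 were 0.10 for Ccr1, 0.021 for Ccr2 and -0.038 for Ccrl2. For Ccr2 it was 0.016 with array weights, and for Ccr3 0.0080 with a pseudocount of 16. Without 1 array it ran from -1.04 to 0.19 for Ccr1, -0.045 to 0.061 for Ccr3, -0.33 to 0.86 for Ccr7, -0.025 to 0.46 for Ccrl2 and -0.14 to 0.029 for Cx3cr1.

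Over all genes, 5594 were called with LPS in wild type (11158 with centring on the 75th percentile, 10113 with array weights) and 9105 in knockout (14970 with that centring). Higher calls made up 34.0% in wild type, 47.8% after quantile normalization, 47.9% after median centring and 77.5% after centring on the 75th percentile, and in knockout 47.9% and 80.2% after the last. Between LPS-treated genotypes 1623 were called, 40.2% higher (56.3% after centring on the 75th percentile), 3296 with array weights, 492 with 6 arrays, 688 without both LPS-treated arrays named above, and 712, 754 and 1076 without wild-type replicate 3, wild-type replicate 1 and knockout replicate 3. Untreated, 15 were called, 23 after quantile normalization, 30 after centring on the 75th percentile and with the replicate block, 46 with array weights, 2 with 6 arrays, 81 without both knockout replicate 2 arrays, 29 without both LPS-treated arrays, and 6 to 23 without 1 array. For the difference of responses 149 were called, 40.3% higher (59.1% after centring on the 75th percentile), 667 with array weights, 296 with the block within genotype, and 55 to 365 without 1 array.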
